A study of Mus musculus with 9 samples.

Results

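The genes described here are 36 genes of the synaptic vesicle and of the machinery that fuses it with the membrane and retrieves it, out of 26602 genes with a count in mouse midbrain. They were taken by symbol from a list of known presynaptic genes, and all 36 of 36 were expressed well enough to be tested. They comprise 7 vesicle membrane proteins, 3 synapsins, 5 synaptotagmins, 4 SNARE proteins, 2 complexins, 3 Rab3 GTPases, 5 active zone and priming proteins, 3 proteins that recycle SNARE complexes and 4 endocytic proteins.

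RNA was sequenced from midbrain tissue that included the substantia nigra pars compacta (SNpc) of 4 DJ-1+/+ mice (labelled WT) and 5 DJ-1-/- mice (labelled DJ-1 KO), all 3 to 4 months old and untreated, with 1 library for each mouse. The DJ-1-/- mice were homozygous for a targeted germline allele of Park7, carried in every cell type, and came from crosses of heterozygotes after 7 backcross generations to C57BL/6. The counts are of unique molecular identifiers (UMIs), random tags by which PCR copies of 1 molecule are counted once, in libraries that read the 3′ end of each transcript. A level is given as counts per 1000000 counts of the library (cpm), and because each molecule gives 1 tag whatever its length, levels of different genes were compared on that scale.

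A nerve terminal stores its transmitter in vesicles that synapsins tether to the cytoskeleton. At the active zone, scaffolds and priming factors dock a vesicle, the vesicle SNARE synaptobrevin zippers onto syntaxin 1 and SNAP-25 in the plasma membrane, and a calcium sensor of the synaptotagmin family triggers fusion with the help of complexin. NSF and its SNAP adaptors then pull the SNARE complex apart, and dynamin, amphiphysins and endophilin bring the membrane back into the terminal. In the midbrain these proteins serve dopaminergic, GABAergic and glutamatergic neurons alike, and Sv2c is known for its high level in basal ganglia circuits.

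None of the 36 genes passed the test between DJ-1-/- and DJ-1+/+ midbrain. In edgeR's quasi-likelihood test, fitted over the 18127 genes that had 10 or more counts in all and adjusted by the method of Benjamini and Hochberg, 0 members had an adjusted p under 0.05, where 1 gene of all those tested (0.00552%) did. At an unadjusted p under 0.05 the count was also 0 of 36, against 511 genes (2.82%), and 0 of 36 members had levels that did not overlap between the genotypes, against 226 genes (1.25%). DESeq2 also gave 0 members at an unadjusted p under 0.05, beside 235 of the 18127 genes. Some other settings gave 1 or 2 members, as listed in the closing section. The estimates lay close to 0, with 16 members higher and 20 lower in DJ-1-/- mice, a median log2 fold change of −0.006 (0.007 over all genes tested) and a range from −0.18 for Bin1 to 0.16 for Synpr.

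The precision of this comparison can be stated member by member. Standard errors of the log2 fold changes ran from 0.06 to 0.32 with a median of 0.09. For 25 members the whole 95% interval lay within 0.3 of 0 on the log2 scale, that is between 0.812-fold and 1.23-fold. The other 11, for which a larger difference in at least 1 direction was not excluded by the interval, were Synpr, Sv2c, Syn3, Syt2, Syt5, Stx1a, Rab3b, Rab3c, Bsn, Dnm1 and Bin1. These intervals are for UMI counts, and whether counting compressed differences in abundant genes was not tested. Among genes with a mean of at least 20 counts per library, the median size of the log2 fold change was 0.04 for 35 members and 0.08 for all 10770 genes.

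**Figure D1:**
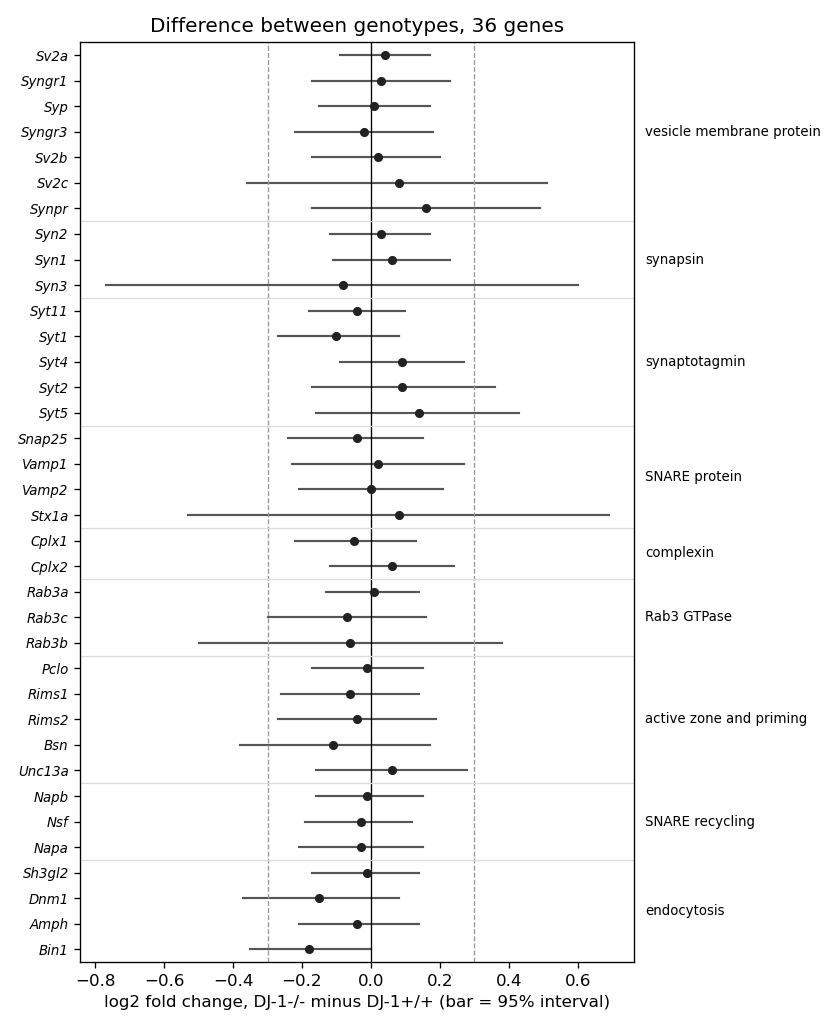
Log2 fold change of each of the 36 genes, DJ-1-/- minus DJ-1+/+ (points), with its 95% interval from edgeR's quasi-likelihood fit (bars), ordered by role. Dashed lines mark −0.3 and 0.3; 25 intervals lie between them, and the widest is that of Syn3, the least abundant member.

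Park7, which encodes DJ-1, was read first as a check of the labels and had 132, 105, 113 and 118 counts in the DJ-1+/+ and 23, 29, 14, 19 and 19 counts in the DJ-1-/- libraries (log2 fold change −2.71, SE 0.15, adjusted p = 7.44e-08 by edgeR's test). Total counts per library were between 841974 and 886085 for DJ-1+/+ and between 967751 and 1098125 for DJ-1-/- mice, so that every DJ-1-/- library was deeper (two-sided exact permutation test, p = 0.0159, the smallest value possible with 4 and 5 mice). A total of 3 counts, taken as the detection floor for counting error alone, equalled 2.73 to 3.56 cpm. The dopaminergic markers Th, with 30 to 119 counts per library, and Slc6a3, with 20 to 131, were present in every library. Of the other dopaminergic markers, Aldh1a1 had 117 to 172 counts. In contrast, En1 fell to 9 counts in DJ-1+/+ replicate 4 and Foxa2 to 3 in DJ-1+/+ replicate 3, and Pitx3 had 0 counts in both. Markers of neighbouring regions were uneven as well. Gabra6, a gene of cerebellar granule cells, had 102 counts in DJ-1+/+ replicate 1 and at most 2 elsewhere, and the 12 choroid plexus markers summed to 824 cpm in DJ-1+/+ replicate 4 and 93 to 361 cpm in the others. Xist, expressed from an inactive X chromosome, had 0 to 2 counts in 3 libraries (replicates 1 and 4 of DJ-1+/+, replicate 5 of DJ-1-/-) and 146 to 193 in the rest. Without DJ-1+/+ replicates 1 and 4 together, 0 members had an adjusted p under 0.05. In that setting 1 member (Syt4) had an unadjusted p under 0.05, beside 468 of 17571 genes tested. In 2 members (Syt4 and Syp) the genotypes did not overlap in that setting. Replicate 1 held the highest DJ-1+/+ value of Syt4 and replicate 4 that of Syp, so leaving them out favoured separation. The share of all genes without overlap is not given for these fewer libraries, and no result is read from the 2 separations.

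As a group the genes were abundant and their total was even across mice. Their summed level was 7037, 6688, 7064 and 6902 cpm in the DJ-1+/+ libraries and 6798, 6833, 6646, 7114 and 6991 cpm in the DJ-1-/- libraries. The means were 6923 ± 172 cpm (SD, n = 4) and 6876 ± 181 cpm (SD, n = 5), a log2 ratio of −0.01, and the values of the genotypes overlapped fully. The 15 neuron markers were at 4286 ± 134 and 4263 ± 197 cpm in the same order, and the 10 oligodendrocyte markers at 2603 ± 340 and 2544 ± 156 cpm. Of 8 astrocyte and 9 microglia markers, 0 had an unadjusted p under 0.05 (median log2 fold changes −0.02 and 0.04). The 12 dopaminergic markers summed to between 634 and 1142 cpm among the DJ-1+/+ and between 882 and 1190 cpm among the DJ-1-/- libraries. Their median log2 fold change was 0.34, with 5 of 12 higher at an unadjusted p under 0.05 (beside 2.82% of all genes) and 0 at an adjusted p under 0.05 in edgeR's test. Among the 5, Pitx3 had at most 1 count in a DJ-1+/+ library and 1 to 6 in the DJ-1-/- libraries, and passed the filter through the latter. In the same fit 7 of 12 choroid plexus markers (median log2 fold change −1.63) and 7 of 12 cerebellar markers (median −0.65) were lower at an unadjusted p under 0.05, with 0 at an adjusted p under 0.05. Single libraries weighed on these counts. The cerebellar markers summed to 1605 cpm in DJ-1+/+ replicate 1 and 567 to 859 cpm in the others. Gabra6 and Pcp2 passed the filter through that library (102 of 107 and 79 of 88 counts), and Aqp1 through DJ-1+/+ replicate 4 (14 of 21 counts). Folr1, also among the choroid plexus markers counted as lower, passed it through the DJ-1+/+ libraries. It had 31 of 42 counts in replicate 4 and at most 2 in a DJ-1-/- library. In bulk tissue, fewer neurons and less of a transcript in each neuron cannot be told apart.

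By level, 25 of the 36 were among the most abundant 10% of the genes tested. Syt11 led with 431 cpm on average over the 9 libraries, followed by Syt1 (363), Sv2a (354) and Napb (333). The range of Syt11 over the libraries (395 to 469 cpm) overlapped that of Syt1, but Syt11 was above Syt1 in each library. The ranges of Syt1, Sv2a and Napb (298 to 413, 330 to 377 and 291 to 356 cpm) overlapped, so that their order was not resolved. Snap25, Rab3a and Cplx1 followed between 315 and 319 cpm on average. At the lower end stood Synpr (73.7 cpm), Rab3b (54.4 cpm), Stx1a (38.2 cpm) and Syn3 (8.91 cpm), and only Syn3, at 6 to 11 counts in a library, came near the detection floor. Counts of the most abundant genes lay close together in these files. In DJ-1+/+ replicate 1, Mbp, a myelin transcript, had 503 counts and the mitochondrial mt-Co1 had 395, beside 370 for Syt11. Only 63 genes had a mean of 300 counts or more. Whether the counting of tags compressed the levels of abundant genes was not tested.

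**Figure D2:**
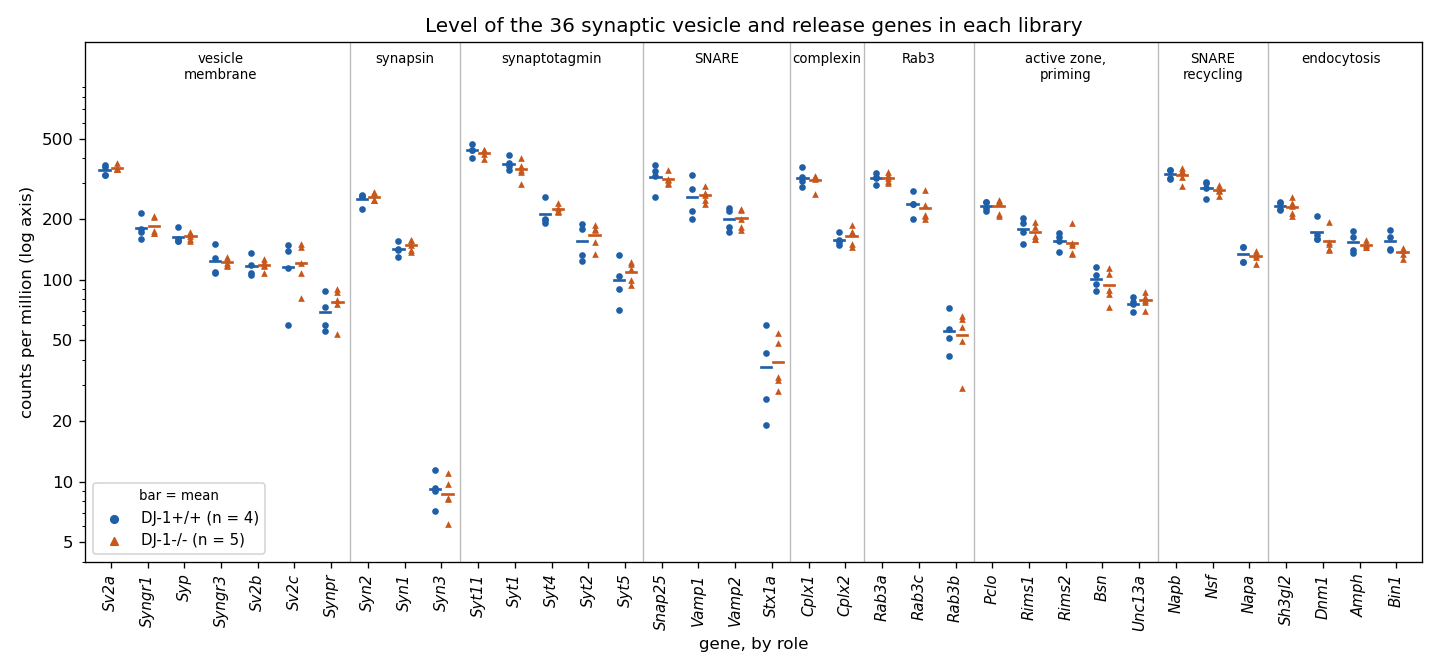
Level of each of the 36 genes in each library, in cpm on a log axis, grouped by role and ordered by level within a role. Circles are the 4 DJ-1+/+ and triangles the 5 DJ-1-/- mice, and bars mark the mean; the genotypes overlap for every gene, and the libraries of Stx1a, Rab3b and Sv2c scatter most.

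The promoters of these genes were compared as a feature that the choice of genes did not use. RefSeq windows (GRCm38.p6) from 250 bases before to 50 bases after a start were matched by symbol for 28 of the 36 genes, in 36 windows. The other 8 were Syt5, Bin1, Vamp2, Syt4, Syngr3, Snap25, Syn3 and Rims2. GC content had a median of 61.3% in the members' windows and 52.7% over all 32851 windows. Searched on both strands, the GC box GGGCGG was in 63.9% of the members' windows and 35.7% of all windows, and TATAAA in 8.33% and 13.6%. The full cAMP response element, TGACGTCA, was in 8.33% of the members' windows (Syn1, Napa and Sh3gl2) and 1.79% of all. The left arm of the site bound by REST, a repressor of neuronal genes outside neurons, TTCAGCACC, was in 5.56% (Syn1 and Unc13a) and 0.371% of all, and its right arm, GGACAGC, in 2.78% (Unc13a) and 6.56% of all. The matches to the REST arms and to the cAMP response element did not overlap each other, and a match is a description of letters, not a bound site. The promoter stretches of Syn1 (chrX:20921055-20921165, minus strand) and Sh3gl2 (chr4:85205404-85205441, plus strand) are shown because they hold the rarer matches before the start, in capitals.
Syn1: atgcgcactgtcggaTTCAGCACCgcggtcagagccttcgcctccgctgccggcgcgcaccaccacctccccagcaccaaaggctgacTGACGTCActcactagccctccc
Sh3gl2: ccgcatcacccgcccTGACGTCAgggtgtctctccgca
In Syn1 the capitals mark the left REST arm and then the cAMP response element, and in Sh3gl2 the cAMP response element. Their log2 fold changes between genotypes were 0.06 (SE 0.08) for Syn1 and −0.01 (SE 0.07) for Sh3gl2.

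The vesicle membrane proteins had small positive estimates, 6 of 7 above 0, with a median log2 fold change of 0.03. Sv2a, a glycoprotein of nearly all synaptic vesicles and the target of levetiracetam, had 330, 364, 371 and 330 cpm in DJ-1+/+ mice and 357, 353, 355, 377 and 353 cpm in DJ-1-/- mice. All 5 DJ-1-/- values fell within or just above the DJ-1+/+ range, and the log2 fold change was 0.04 (SE 0.06, 95% interval −0.09 to 0.17). Synpr, which encodes synaptoporin, a relative of synaptophysin, had the highest estimate of the 36. Its levels were 59.4, 87.5, 55.8 and 73.4 cpm in DJ-1+/+ and 54.1, 87.4, 89.7, 79.6 and 76.0 cpm in DJ-1-/- libraries. The lowest and the highest values were both in DJ-1-/- mice, and the log2 fold change of 0.16 (SE 0.16) had a 95% interval from −0.17 to 0.49. Syp, the synaptophysin gene and the usual marker of presynaptic terminals, was among the steadiest of the group, with means of 163 ± 13.0 and 164 ± 6.77 cpm (SD, n = 4 DJ-1+/+ and n = 5 DJ-1-/- mice).

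The synaptogyrin genes Syngr1 and Syngr3 and the Sv2a relative Sv2b had log2 fold changes from −0.02 to 0.03. Sv2c varied more between mice of 1 genotype, with 139, 114, 149 and 59.8 cpm in DJ-1+/+ and 150, 145, 108, 121 and 80.9 cpm in DJ-1-/- libraries. Replicate 4 of DJ-1+/+ and replicate 5 of DJ-1-/- were the low libraries, so that the genotypes overlapped and the log2 fold change of 0.08 had an SE of 0.20.

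The synapsins, phosphoproteins that hold vesicles in the reserve pool, were at 142 ± 10.9 and 148 ± 8.80 cpm for Syn1. Syn2, the most abundant of the 3, had 224, 264, 259 and 260 cpm in DJ-1+/+ and 247, 273, 249, 268 and 248 cpm in DJ-1-/- mice. DJ-1+/+ replicate 1 was the lowest of all 9, and the log2 fold change was 0.03 (SE 0.07). Syn3 was too low for a firm statement, with a 95% interval from −0.77 to 0.60.

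The synaptotagmins included the most abundant member and several of the largest estimates, 3 above and 2 below 0. Syt11, a form that does not bind calcium and is known as a Parkinson's disease risk locus, had 439, 403, 469 and 437 cpm in DJ-1+/+ and 439, 395, 438, 420 and 439 cpm in DJ-1-/- mice. The values coincided almost entirely, with a log2 fold change of −0.04 (SE 0.07). Syt2, the fast calcium sensor of the brainstem and hindbrain, had 188, 133, 179 and 124 cpm in DJ-1+/+ and 177, 178, 154, 187 and 134 cpm in DJ-1-/- mice. Low libraries occurred in both genotypes, and the log2 fold change was 0.09 (SE 0.12). Syt5, a calcium-binding synaptotagmin, had 90.3, 133, 71.0 and 104 cpm in DJ-1+/+ and 94.1, 100.0, 120, 122 and 113 cpm in DJ-1-/- mice. DJ-1+/+ replicate 2 was the highest and replicate 3 the lowest of all 9, and the log2 fold change was 0.14 (SE 0.14, 95% interval −0.16 to 0.43). Without replicate 2 it was 0.30 (unadjusted p = 0.0325 in edgeR's test), beside 732 of 17844 genes with an unadjusted p under 0.05. Leaving out the highest DJ-1+/+ value raised this estimate by construction.

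Syt1, the main sensor for synchronous release in the forebrain, had a log2 fold change of −0.10 (SE 0.08). Syt4, a synaptotagmin induced by activity and found on dense-core vesicles, was set by 1 library. It had 257 cpm in DJ-1+/+ replicate 1, 197, 192 and 200 cpm in the other DJ-1+/+ mice and 239, 217, 219, 227 and 220 cpm in the DJ-1-/- mice. With all libraries the log2 fold change was 0.09 (SE 0.09). Without replicate 1, the library with cerebellar Gabra6, all 5 DJ-1-/- values were above the 3 DJ-1+/+ values. The log2 fold change was then 0.19 (unadjusted p = 0.0173 in edgeR's test). Because replicate 1 held the highest value of all 9, leaving it out moved the genotypes apart by construction. In that setting 418 of 17881 genes had an unadjusted p under 0.05, and the share of genes without overlap is not given. The smallest adjusted p of any member without that library was 0.999.

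Of the SNARE proteins, Snap25, the plasma membrane SNARE that contributes 2 helices to the complex, had 347, 257, 369 and 325 cpm in DJ-1+/+ and 350, 300, 298, 315 and 311 cpm in DJ-1-/- mice. Both extremes were DJ-1+/+ libraries, and the log2 fold change was −0.04 (SE 0.09). The synaptobrevin genes Vamp1 and Vamp2 had log2 fold changes of 0.02 (SE 0.12) and 0.00 (SE 0.10). Stx1a, which encodes the plasma membrane SNARE syntaxin 1A, spanned the widest relative range, with 19.0, 43.2, 25.6 and 59.8 cpm in DJ-1+/+ and 28.0, 32.8, 54.7, 32.0 and 48.7 cpm in DJ-1-/- libraries. Its 95% interval ran from −0.53 to 0.69, so that even a 1.23-fold difference in either direction could not be resolved.

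The complexins clamp the assembled SNARE complex. Cplx1 had 324, 288, 362 and 310 cpm in DJ-1+/+ and 325, 317, 265, 323 and 322 cpm in DJ-1-/- mice. Apart from the low DJ-1-/- replicate 3 the values of DJ-1-/- mice lay within 317 to 325 cpm, and the log2 fold change was −0.05 (SE 0.08). Cplx2 had a log2 fold change of 0.06 (SE 0.08).

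Rab3 GTPases ride on vesicles and bind the active zone through RIM proteins. Rab3a, the most abundant form, had 338, 294, 322 and 318 cpm in DJ-1+/+ and 303, 319, 331, 340 and 307 cpm in DJ-1-/- mice. Its estimate was among the most precise, with a log2 fold change of 0.01 (SE 0.06, 95% interval −0.13 to 0.14). The related Rab3b was low in replicate 5 of DJ-1-/- (29.2 cpm) and replicate 4 of DJ-1+/+ (41.8 cpm) and between 49.6 and 72.7 cpm in the other libraries. Rab3c was highest in the same pair, at 280 and 276 cpm against 200 to 236 cpm elsewhere. These libraries belong to different genotypes, and the log2 fold changes were −0.06 (SE 0.21) and −0.07 (SE 0.11).

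Active zone and priming genes had 1 of 5 estimates above 0. Pclo, which encodes the giant scaffold piccolo, had 219, 242, 227 and 243 cpm in DJ-1+/+ and 212, 243, 208, 249 and 245 cpm in DJ-1-/- mice. Its values overlapped fully (log2 fold change −0.01, SE 0.08). Bsn, which encodes the partner scaffold bassoon, had the third-lowest estimate of the 36. It had 95, 87.5, 105 and 116 cpm in DJ-1+/+ and 85.1, 89.2, 107, 73.4 and 114 cpm in DJ-1-/- mice. The ranges overlapped over most of their length, and the log2 fold change was −0.11 (SE 0.13, 95% interval −0.38 to 0.17). The RIM genes Rims1 and Rims2, which link Rab3 to calcium channels, and the Munc13 gene Unc13a, which primes vesicles by opening syntaxin, had log2 fold changes of −0.06, −0.04 and 0.06.

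All 3 genes that recycle SNARE complexes had estimates just under 0, between −0.03 and −0.01. Napb, which encodes beta-SNAP, had 349, 317, 349 and 318 cpm in DJ-1+/+ and 345, 356, 291, 345 and 322 cpm in DJ-1-/- mice. The lowest and the highest of the 9 were both DJ-1-/- libraries. Nsf, the ATPase itself, was at 285 ± 24 and 279 ± 13.0 cpm, and Napa, which encodes alpha-SNAP, at 134 ± 13.6 and 131 ± 7.42 cpm.

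The endocytic genes held the 2 lowest estimates, and all 4 estimates were below 0, with a median log2 fold change of −0.09. Among 25 further genes of vesicle endocytosis, 12 estimates were above and 13 below 0, with a median of −0.01. Bin1, which encodes amphiphysin 2, had 177.0, 139.8, 162.9 and 142.2 cpm in DJ-1+/+ and 142.1, 143.9, 140.3, 126.1 and 134.5 cpm in DJ-1-/- mice. DJ-1+/+ replicates 1 and 3 were above all DJ-1-/- libraries, while replicates 2 and 4 lay among them, so that the genotypes overlapped. Its log2 fold change of −0.18 (SE 0.08, 95% interval −0.35 to 0.00) had the smallest unadjusted p of the 36, 0.0523 in edgeR's test. Bin1 is also expressed by oligodendrocytes. The 10 oligodendrocyte markers summed to 2824, 2178, 2924 and 2487 cpm in DJ-1+/+ and 2796, 2597, 2438, 2456 and 2433 cpm in DJ-1-/- libraries. Of these markers 0 had an unadjusted p under 0.05, with a median log2 fold change of −0.02. Their part in the level of Bin1 was not tested.

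Dnm1, the neuronal dynamin that cuts vesicles from the membrane, had 208, 159, 159 and 166 cpm in DJ-1+/+ and 151, 142, 141, 193 and 154 cpm in DJ-1-/- mice. A single library stood high in each genotype, replicate 1 of DJ-1+/+ and replicate 4 of DJ-1-/-. The log2 fold change was −0.15 (SE 0.11). It was −0.24 without DJ-1-/- replicate 4, when the genotypes no longer overlapped (unadjusted p = 0.0203 in edgeR's test). It was −0.05 without DJ-1+/+ replicate 1 (unadjusted p = 0.647 in the same test). Each of these libraries held the highest value of its genotype, so the estimate moved by construction when it was left out. Without DJ-1-/- replicate 4, 547 of 17848 genes had an unadjusted p under 0.05, and the share of genes without overlap is not given. Sh3gl2, which encodes endophilin A1, had 240, 225, 243 and 221 cpm in DJ-1+/+ and 240, 232, 208, 256 and 214 cpm in DJ-1-/- mice, with no separation of the genotypes. Amph, the amphiphysin 1 gene, had a log2 fold change of −0.04 (SE 0.08).

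The wider pathway resembled the members in its counts. Of 78 further genes of vesicle release and endocytosis, 76 were tested, with 35 estimates above and 41 below 0, the median log2 fold change was 0.00, and 0 had an adjusted p under 0.05 by edgeR's test or levels without overlap. An unadjusted p under 0.05 was reached by 2 genes, or 2.63%, beside 2.82% of all genes tested. Clta, a clathrin light chain, had 157, 147, 164 and 144 cpm in DJ-1+/+ and 189, 164, 176, 180 and 159 cpm in DJ-1-/- mice (log2 fold change 0.18, SE 0.08). Stx3, a syntaxin of ribbon synapses and dendrites, had 54.6, 84.1, 66.3 and 58.7 cpm in DJ-1+/+ and 45, 51.9, 57.8, 55.8 and 51.6 cpm in DJ-1-/- mice (log2 fold change −0.33, SE 0.14). In each of the 2 genes, 3 of 5 DJ-1-/- values lay outside the DJ-1+/+ range. The other extremes of the release genes were Syt12 (0.58, SE 0.28), Syt6 (0.29, SE 0.27) and Snap23 (−0.32, SE 0.20), and those of the endocytic genes were Ap2m1 (0.14, SE 0.08), Sh3gl1 (−0.24, SE 0.15) and Ap2b1 (−0.17, SE 0.10), all as log2 fold changes.

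Mice of 1 genotype differed from each other in several of the 36 genes. The spread within genotype was expressed as the chi-square of the counts per degree of freedom, which is near 1 where counting noise accounts for it. Of the 35 members with a mean of at least 20 counts, 9 (25.7%) had a spread over 3, against 1016 of 10770 genes (9.43%), and the medians were 1.81 and 1.08. The 9 were Sv2c (9.05), Vamp1 (6.05), Stx1a (5.37), Rab3c (4.19), Syt2 (4.14), Rab3b (3.57), Snap25 (3.52), Syt5 (3.32) and Syt1 (3.08). In contrast, 10 members had a spread under 1, among them Rab3a (0.816), Sv2a (0.674), Syn1 (0.613) and Syp (0.548). Spread differed with abundance over all genes, with 5.01% over 3 at means of 100 to 200 counts, where 3 of 16 members were over 3, 14.2% at 200 to 300 counts, where 2 of 8 members were, and 27.0% at 300 counts or more, where 2 of 6 members were. Leaving out any 1 library left 8 to 11 members over 3, and leaving out DJ-1+/+ replicates 1 and 4 together left 12, beside 9.94% of genes.

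**Figure D3:**
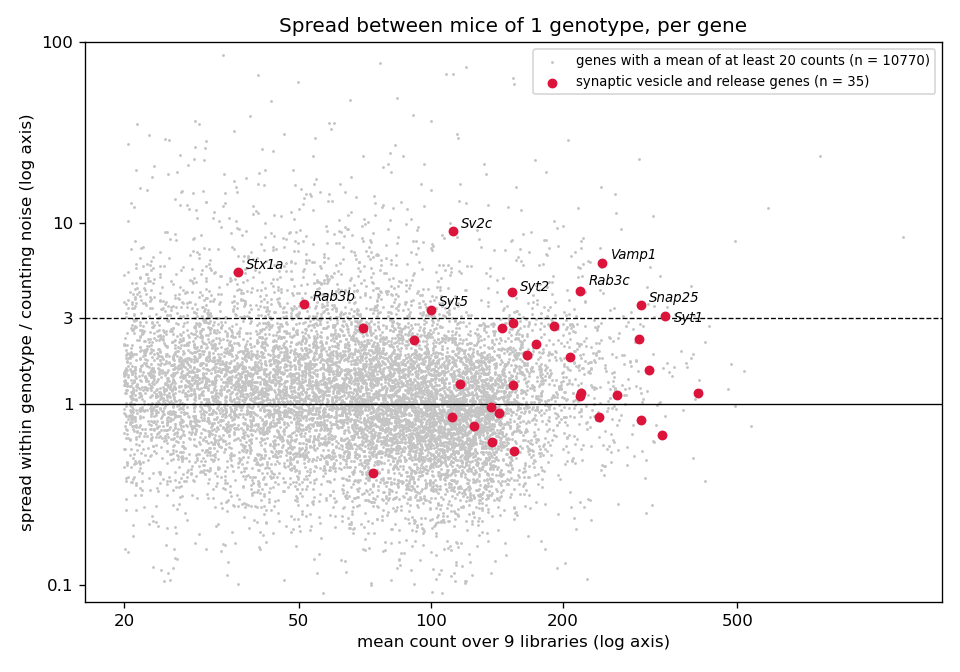
Spread of counts between mice of 1 genotype divided by counting noise (log axis) against mean count (log axis) for 10770 genes (grey) and 35 of the 36 genes (red). The solid line marks counting noise alone and the dashed line a spread of 3; the 9 named genes lie above it, led by Sv2c at 9.05.

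Part of this spread followed paralog pairs. The count ratio of Vamp1 to Vamp2 was 1.62, 1.0, 1.81 and 0.881 in DJ-1+/+ and 1.64, 1.47, 1.18, 1.18 and 1.12 in DJ-1-/- libraries. The ratio of Syt2 to Syt1 was 0.539, 0.351, 0.490 and 0.301 in DJ-1+/+ and 0.594, 0.520, 0.438, 0.513 and 0.332 in DJ-1-/- libraries. In both pairs the first gene is the form that predominates in brainstem and spinal cord and the second the form of the forebrain, and both ratios were lowest in replicates 2 and 4 of DJ-1+/+ and replicate 5 of DJ-1-/-. Of 13 paralog pairs these 2 had that set of lowest libraries. The summed level of 10 forebrain neuron markers was also lowest in those 3 libraries, at 357, 340 and 325 cpm, against 417 to 518 cpm in the other 6. The list did not move as a whole: Neurod2 and Lamp5 were lowest in those 3 libraries, whereas Drd1 was highest in DJ-1+/+ replicate 4 (41.8 cpm) and Prox1 in DJ-1-/- replicate 5 (133 cpm). The sum was low where the forebrain forms Vamp2 and Syt1 were relatively high, and its part in the ratios was not tested. The genotype means did not separate, at 1.33 ± 0.457 and 1.32 ± 0.229 for Vamp1 to Vamp2 and 0.420 ± 0.113 and 0.479 ± 0.0992 for Syt2 to Syt1 (SD, n = 4 and n = 5).

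**Figure D4:**
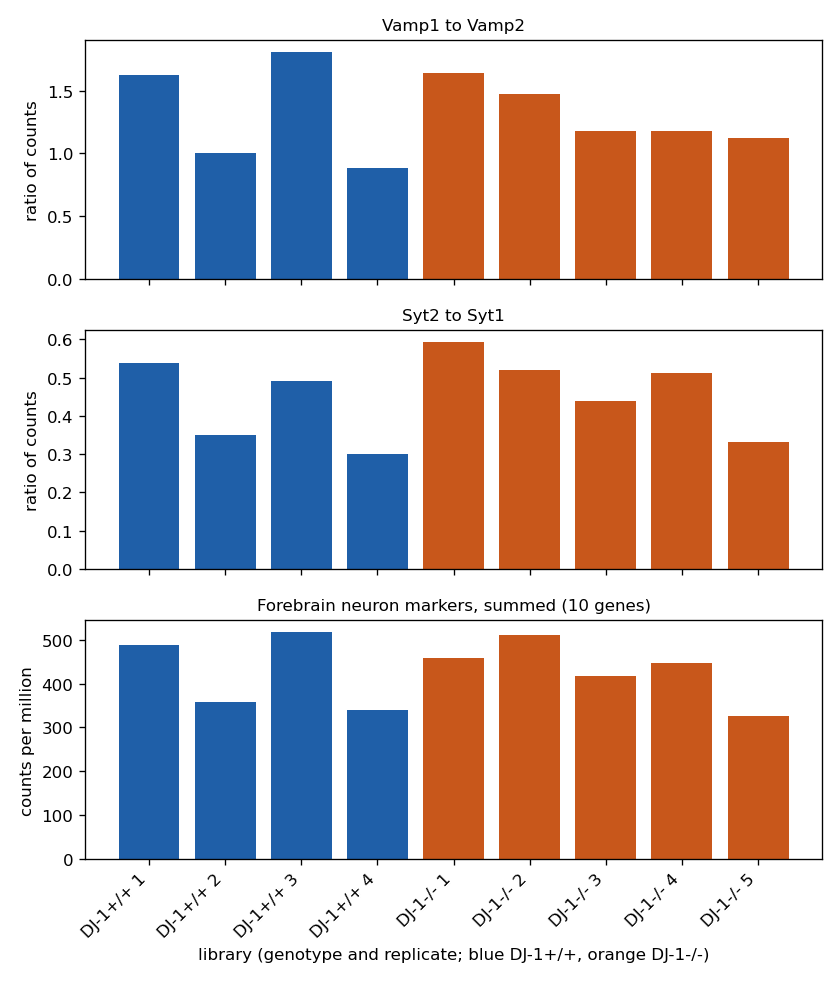
Count ratios of Vamp1 to Vamp2 (top) and Syt2 to Syt1 (middle) and the summed level of 10 forebrain neuron markers in cpm (bottom) in each library, as bars from 0. All 3 panels are lowest in replicates 2 and 4 of DJ-1+/+ and replicate 5 of DJ-1-/-.

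The widest relative range of the pairs was that of Rab3b to Rab3a, between 0.0952 and 0.247. Napb to Napa was the steadiest, between 2.39 and 2.67, and Cplx1 to Cplx2 lay between 1.73 and 2.20. Sv2c to Sv2a was between 0.182 and 0.421, and like Rab3b to Rab3a it was lowest in replicate 4 of DJ-1+/+ and replicate 5 of DJ-1-/-. The ratio of Bin1 to Amph was 1.01, 1.03, 1.01 and 1.01 in DJ-1+/+ and 0.979, 0.988, 0.944, 0.841 and 0.857 in DJ-1-/- mice. This ratio, 1 of 13 and picked out after the values were seen, did not overlap between the genotypes and is given without a test. The separation rests on few counts. Bin1 and Amph had 140 and 139 counts in DJ-1+/+ replicate 3 and 158 and 160 in DJ-1-/- replicate 2. The counting error of the ratio and the share of gene pairs without overlap are not given, so no difference is read from it.

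The 36 genes lie on 17 chromosomes in GENCODE M21 (GRCm38), with Syp and Syn1 on the X chromosome. None is within 10 Mb of Park7 on chromosome 4. The 3′ ends of 7 members overlap another annotated gene, on the opposite strand for Syp (Gm14703), Syn1 (Araf), Syt2 (Ppp1r12b), Rab3a (Mpv17l2), Rab3b (8030443G20Rik) and Unc13a (Colgalt1) and on the same strand for Sh3gl2 (Adamtsl1). The use of strand in counting was not given in the sources used here, and without it reads of the opposite-strand neighbours cannot be told apart. For Sh3gl2 and Adamtsl1 strand would not separate them.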

How the data were processed

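The deposited values are UMI counts by Ensembl gene identifier, whole and not normalized, in a separate set for each mouse. Libraries came from 100 ng of total RNA (QuantSeq 3′ FWD). The submitters' processing notes name fastp 0.20.0, STAR 2.7.3a, featureCounts 2.0.0, UMI-tools 1.0.0 and GRCm38. The annotation, strand setting and UMI length were not given in the sources used here. A gene not listed for a library was given 0 counts, and 26576 of 26602 genes were named from GENCODE M21.

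The 18127 genes whose counts summed to 10 or more were tested with edgeR 4.0.16 under R 4.3.3 (TMM factors, then glmQLFit and glmQLFTest on genotype alone), with Benjamini-Hochberg adjustment over all of them. SE is the log2 fold change divided by the square root of F. Library totals were compared in scipy 1.17.1. Pairs of libraries of 1 genotype differed by 1.07 to 2.27 times sampling noise (chi-square per degree of freedom, 16 pairs), so none was taken as a copy. The scripts were tested on simulated data. Replicates are different mice.

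The 36 genes, the pathway and marker lists and the tests were chosen with earlier results of these data known, so no p was adjusted over a list alone. Genes were named by rule: all members, Park7, and of the 2 pathway lists the 2 highest and 2 lowest log2 fold changes with at least 90 counts. The marker lists are given as sums, counts and medians, and genes that the same rule picks from them are named only where a result turns on them. Members with an extreme estimate or the highest level in their role were given in every library. Genes given for spread, paralog ratios or checks were chosen after their values were seen. Alternatives were RLE factors, library totals, DESeq2 1.42.0, other filters, Xist as a covariate, a replicate block, thinned counts and libraries left out.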

Additional observations from a re-analysis of the deposited data

Results flagged for a closer look

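In 7 of 72 groups (36 genes in 2 genotypes), 1 library lay far from the rest of its genotype by Dixon's criterion at 95%, where chance gives about 3.6. DJ-1+/+ replicate 1, the library with Gabra6, was the far library 3 times. It was high for Syt4 (257 cpm, others 192 to 200) and Dnm1 (208 cpm, others 159 to 166) and low for Syn2 (224 cpm, others 259 to 264). DJ-1+/+ replicate 4, the library with the highest choroid plexus markers, was high for Syp (182 cpm, others 155 to 159). It also had 1 count of Xist, and Syp lies on the X chromosome. Of the other libraries with low Xist, DJ-1+/+ replicate 1 had 159 cpm and DJ-1-/- replicate 5 had 172 cpm of Syp. DJ-1-/- replicate 4 was high for Dnm1 (193 cpm, others 141 to 154) and for Sv2a (377 cpm, others 353 to 357). DJ-1-/- replicate 3 was low for Cplx1 (265 cpm, others 317 to 325). The parts of dissection and of Xist status in these values were not tested.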

How the results depend on the processing

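No member reached an adjusted p under 0.05 in edgeR's or DESeq2's test under any of 18 alternatives, where the smallest was 0.86. Of 647 log2 fold changes of members under them, 632 moved by less than 1 SE and 15 by more, within −0.24 to 0.42. The sign changed under at least 1 alternative for 25 members, at sizes up to 0.14, and under none for 11 (Bin1, Bsn, Cplx2, Dnm1, Syn1, Synpr, Syt1, Syt11, Syt4, Syt5 and Unc13a). Members with an unadjusted p under 0.05 numbered 1 with RLE factors, with at least 10 counts in 4 libraries and with thinned counts (Bin1 each time), 1 without DJ-1+/+ replicates 1 and 4 together (Syt4) and 0 to 2 with a library left out (Syt4 without DJ-1+/+ replicate 1, Syt5 and Bin1 without replicate 2, Bin1 without replicate 4, Dnm1 without DJ-1-/- replicate 4). Members without overlap numbered 0 to 1 with a library left out and 2 without DJ-1+/+ replicates 1 and 4. The share of all genes without overlap is not given for these settings, and separation is easier to reach with fewer libraries. No result is read from these counts. Of the 76 further pathway genes, 0 (DESeq2), 1 (Xist as a covariate) and 1 to 5 (a library left out) had an unadjusted p under 0.05. Over all genes that count was 536 of 18127 with RLE factors, 345 of 12935 with at least 10 counts in 4 libraries and 516 of 17849 with thinned counts. It was 235 of 18127 with DESeq2, 802 of 26602 without a filter and 338 to 732 with a library left out. Without DJ-1+/+ replicates 1 and 4 together it was 468 of 17571. Adjusted calls numbered 36 without a filter and 1 to 2 with a library left out. The cause was not tested. Filtering on 10 counts in 4 libraries removed Syn3. The counts of members with spread over 3 were recomputed after seeing the data.

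Replicate numbers come from the labels, and the deviations of same-numbered libraries correlated at 0.29, 0.041, −0.119 and −0.186 for numbers 1 to 4 (10770 genes), so that the numbers as a whole were not taken as pairs. With the replicate block, 8 genes had an adjusted p under 0.05, 0 of them members. The block gave 1 member, Syt1, an unadjusted p under 0.05 (log2 fold change −0.16), beside 569 of 18127 genes tested.

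Depth and genotype cannot be told apart, since every DJ-1-/- library was the deeper. Intervals were widest for Syn3 (SE 0.32, 76 counts in all), Stx1a (SE 0.29) and Rab3b (SE 0.21).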
